A study of Mus musculus with 15 samples.

Results

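The genes described here are 8 podocyte genes, Nphs1, Cd2ap, Podxl, Ptpro, Synpo, Clic5, Wt1 and Tcf21, chosen by name from the 23284 genes of the expression table. All 8 passed the filter on low values, so each was among the 11781 genes tested. RNA from whole kidney was sequenced in 15 libraries of wild-type (WT) mice, 5 after D-alanine (D-ala), 5 after L-alanine (L-ala) and 5 after vehicle, each labelled with a time of 2 h. The WT genotype, the tissue and the time were shared by all 3 groups. The sources used here do not give the dose, route, make-up of the vehicle, strain, sex or age, so the D-ala and L-ala groups cannot be matched on dose. Nothing says that the samples of a group came from separate animals, so the p-values measure the spread between these samples, which may be technical.

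Podocytes are the epithelial cells that wrap the capillaries of the glomerulus, the filtering unit of the kidney. Their interlocking foot processes are bridged by the slit diaphragm, a protein sheet that forms the last layer of the filter. The diaphragm is tied to an actin cytoskeleton, the free surface of the cell carries a negatively charged coat, and a small set of transcription factors keeps the cell differentiated. D-alanine is the mirror image of L-alanine, the form built into proteins.

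Deposited FPKM values (fragments per kilobase of gene, scaled to the mapped fragments of the library) are corrected for gene length, so levels can be set beside each other between genes. Read totals recovered from the table lay between 7.56 and 10.9 M per library. Proximal tubule markers summed to 80400 to 147000 FPKM per library, and the 8 podocyte genes together to 75.7 to 98.5 FPKM. Most of the tubule sum came from 1 gene, Kap, which alone had 72100 to 138000 FPKM. In RNA from whole tissue, fewer podocytes and less RNA per podocyte cannot be told apart. Vehicle replicate 1 had the lowest value of its group for 7 of the 8 genes and L-ala replicate 5 for 6 of the 8, so counts below are also given without this pair of libraries, a choice made after seeing the data. Summed over the 8 genes, levels were 83.6 to 95.2 FPKM in D-ala kidneys, 75.7 to 95.1 FPKM in L-ala kidneys and 79.1 to 98.5 FPKM in vehicle kidneys, and the groups overlapped.

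The genes were ordered by their mean FPKM over the 15 libraries. Podxl was highest at 27.2 FPKM, followed by Cd2ap at 18.7, Clic5 at 16.7, Tcf21 at 8.94, Synpo at 7.01, Nphs1 at 3.96, Ptpro at 2.99 and Wt1 at 2.24 FPKM. Each gene stood above the next in 13 or more of the 15 libraries, with 1 exception: Tcf21 stood above Synpo in 8 of 15. By group, Tcf21 was the higher of that pair in 1 of 5 D-ala libraries, 2 of 5 L-ala libraries and 5 of 5 vehicle libraries. The coefficient of variation over the 15 libraries was lowest for Cd2ap, at 4.45%, and highest for Tcf21, at 49.5%. It lay between 9.29% and 21.6% for the other 6 genes.

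Few of the genes changed. A gene was called when its Benjamini-Hochberg adjusted p, over all 11781 genes in a limma fit of log2(FPKM + 1), was under 0.05. Each call was then recomputed in 25 other settings: 9 ways of processing, 15 that left out 1 library each, and 1 without the pair named above. In D-ala versus vehicle kidneys 1 of the 8 was called, Tcf21, which fell. Over all tested genes 11.5% were called in that comparison and 4.92% were called lower. In L-ala versus vehicle kidneys 1 of the 8 was again called, and again it was Tcf21, lower. There 11% of all tested genes were called and 4.53% were called lower. In D-ala versus L-ala kidneys 1 of the 8 was called, Podxl, which was higher, against 13.7% of all tested genes called and 7.01% called higher. A share of 1 in 8 is 12.5%, close to the background in each comparison. At an unadjusted p under 0.05 there were 3 of the 8 in D-ala versus vehicle, 1 in L-ala versus vehicle and 2 in D-ala versus L-ala, beside 26.5%, 30.5% and 30.8% of all tested genes. Without vehicle replicate 1 and L-ala replicate 5, 1 of the 8 was called in D-ala versus vehicle, 0 in L-ala versus vehicle and 1 in D-ala versus L-ala. Both comparisons with vehicle use the same 5 vehicle libraries. The median log2 fold change of the 8 genes was 0.08 in D-ala versus vehicle, -0.03 in L-ala versus vehicle and 0.07 in D-ala versus L-ala kidneys, beside 0.0010, 0.0070 and -0.0090 over all tested genes. In none of the 24 pairs of gene and comparison were the groups' values free of overlap; over all tested genes, groups did not overlap for 10.9% in D-ala versus vehicle, 7.24% in L-ala versus vehicle and 9.11% in D-ala versus L-ala.

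**Figure D1:**
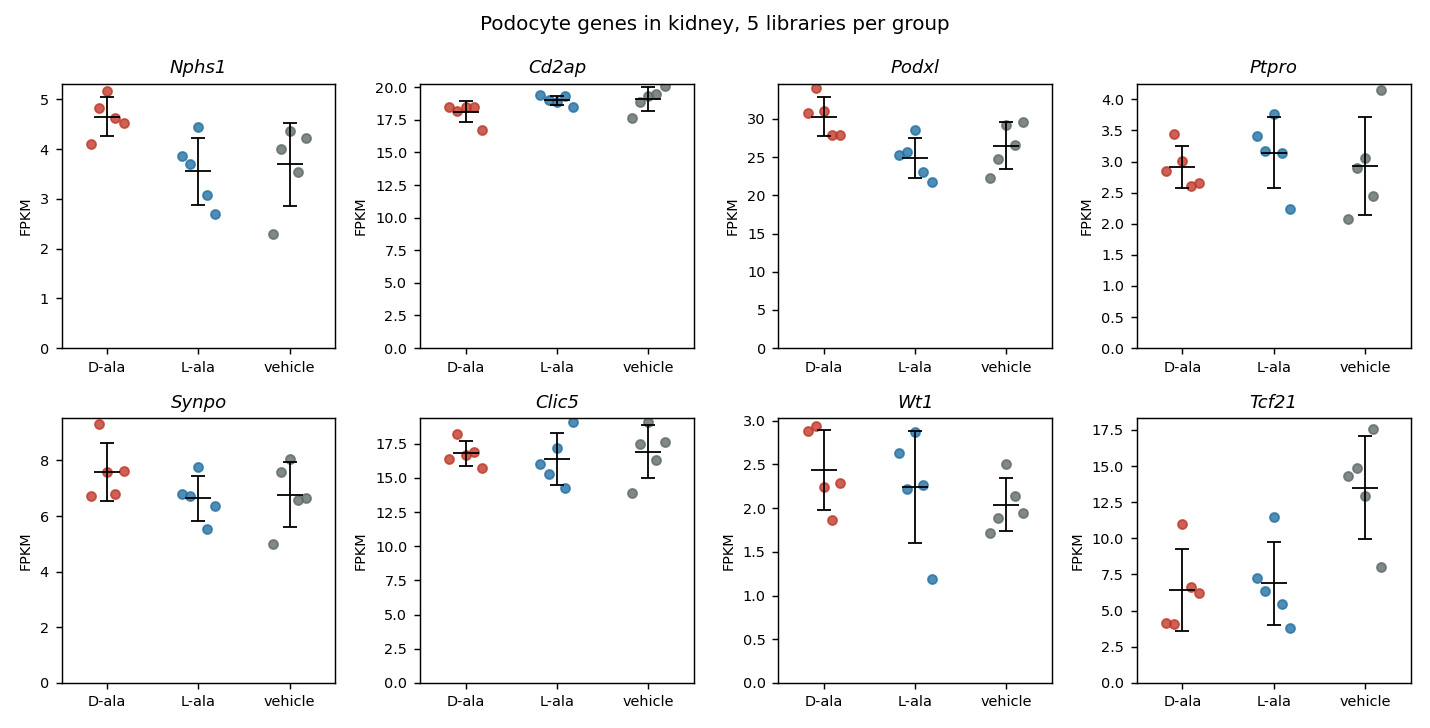
FPKM of the 8 podocyte genes (vertical axes, from 0) in D-ala, L-ala and vehicle kidneys, 1 point per library and 5 libraries per group, with the mean and SD as a bar with whiskers. Tcf21 lies under 8.0 FPKM in 4 of 5 D-ala and 4 of 5 L-ala libraries and at 8.0 FPKM or more in all 5 vehicle libraries. For Podxl, 1 of 5 L-ala libraries reaches into the D-ala range.

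**Figure D2:**
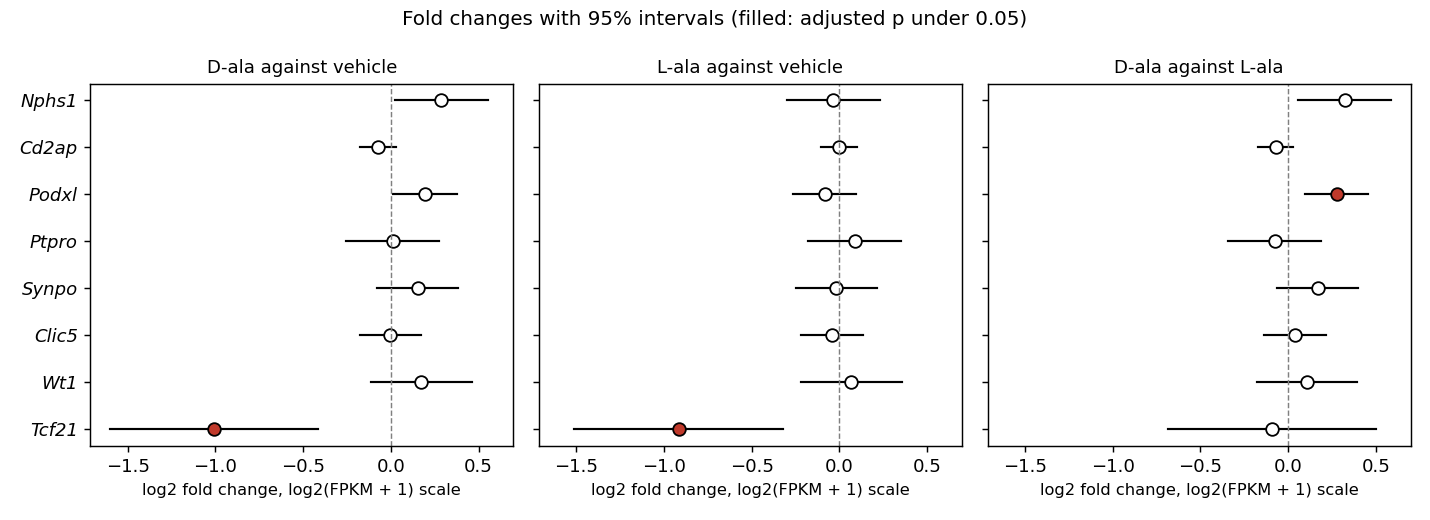
Log2 fold change of each podocyte gene on the log2(FPKM + 1) scale (horizontal axis) with its 95% interval, for D-ala versus vehicle, L-ala versus vehicle and D-ala versus L-ala kidneys. Filled points have an adjusted p under 0.05: Tcf21 in the comparisons with vehicle and Podxl in D-ala versus L-ala.

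For the promoter sequences, 5 of the 8 genes (Nphs1, Cd2ap, Ptpro, Clic5 and Tcf21) matched the RefSeq promoter table of build GRCm38.p6; Podxl, Synpo and Wt1 did not. The 250 bases before the RefSeq start are shown for Nphs1, the defining gene of the slit diaphragm, and for Tcf21, the gene whose level fell. Nphs1 lies on chromosome 7, plus strand, at chr7:30459808-30460057, and Tcf21 on chromosome 10, minus strand, at chr10:22820144-22820393. Both are written 5′ to 3′ in the direction of the gene, with capitals for every match to GNGGGNG, a core read by zinc fingers of the WT1 and EGR type, and to CANNTG, the E-box read by basic helix-loop-helix factors such as TCF21.
Nphs1: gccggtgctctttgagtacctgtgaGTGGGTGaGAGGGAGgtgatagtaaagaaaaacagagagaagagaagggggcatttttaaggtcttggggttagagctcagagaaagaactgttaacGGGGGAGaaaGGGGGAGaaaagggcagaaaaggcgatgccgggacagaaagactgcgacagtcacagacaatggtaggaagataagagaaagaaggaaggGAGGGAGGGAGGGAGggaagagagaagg
Tcf21: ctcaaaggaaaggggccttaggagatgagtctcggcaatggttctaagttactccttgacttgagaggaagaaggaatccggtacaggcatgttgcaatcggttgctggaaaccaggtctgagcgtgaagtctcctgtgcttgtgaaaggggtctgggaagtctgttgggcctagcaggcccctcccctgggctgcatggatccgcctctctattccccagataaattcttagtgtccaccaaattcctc

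Matches were sought on both strands for 4 motifs, which besides the WT1 and EGR core and the E-box were TGACG, a core of the cAMP response element, and the AP-1 site, spelled TGANTCA. The Nphs1 window held 7 matches of the WT1 and EGR core, some overlapping each other, and 0 of the other 3 motifs. That window begins at 30459808 on chromosome 7, past the GENCODE start of Nphs1 at 30458315, so it lies inside the GENCODE gene. The Tcf21 window held 0 matches of all 4. Of the other windows, Cd2ap held 8 such cores and 2 E-boxes, Ptpro 7 and 3, and Clic5 3 and 0. Core matches overlapped in these windows too, so the counts exceed the number of separate sites. In Ptpro, matches began at 172, 171, 170, 169, 168 and 167 bases before the start, which is 1 run. These letters are common: among 32851 windows of the same length in the table, 60.3% held the WT1 and EGR core, 66.2% an E-box, 17.8% the cAMP core and 6.75% the AP-1 site. A match is a run of letters and no measurement of binding.

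Nphs1 encodes nephrin, the adhesion protein that spans the slit between foot processes. Its level was 4.11, 4.83, 5.17, 4.62 and 4.53 FPKM in D-ala kidneys, 3.85, 3.69, 4.45, 3.07 and 2.7 FPKM in L-ala kidneys, and 2.3, 4.01, 4.37, 3.54 and 4.22 FPKM in vehicle kidneys. The D-ala libraries were the highest as a group, but L-ala replicate 3 and vehicle replicates 3 and 5 lay above the lowest D-ala library, and vehicle replicate 1 was the lowest of all. Means were 4.65 ± 0.391 FPKM in D-ala, 3.55 ± 0.681 in L-ala and 3.69 ± 0.838 in vehicle kidneys (SD, n = 5 each). The log2 fold change was 0.29 for D-ala versus vehicle (95% interval 0.02 to 0.55), with a limma adjusted p of 0.153. For D-ala versus L-ala it was 0.32 (0.06 to 0.59), with a limma adjusted p of 0.0951, and for L-ala versus vehicle -0.03 (-0.30 to 0.23), with 0.877. None of these passed the threshold. Without vehicle replicate 1, D-ala versus L-ala passed it, at a limma adjusted p of 0.0399 and a log2 fold change of 0.32; that library enters this comparison only through the shared estimate of spread. In the GENCODE annotation of GRCm38, Nphs1 (chr7:30458315-30487223, plus strand) shares 597 exonic bases with the opposite-strand gene Nphs1os and 183 with Rps12-ps4. The sources used here do not say whether counting used strand, so reads from this overlap cannot be told apart.

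Cd2ap encodes an adaptor that links nephrin to the actin cytoskeleton (chr17:42792951-42876665, minus strand), and it is made in many cell types besides podocytes. Its level was 18.5, 18.2, 18.5, 18.5 and 16.7 FPKM in D-ala kidneys, 19.4, 19, 18.9, 19.3 and 18.5 FPKM in L-ala kidneys, and 17.6, 18.9, 19.3, 19.5 and 20.1 FPKM in vehicle kidneys. All 15 libraries lay within a narrow band, with D-ala replicate 5 the lowest. The log2 fold change was -0.07 (-0.17 to 0.03) for D-ala versus vehicle and also -0.07 (-0.17 to 0.03) for D-ala versus L-ala, with limma adjusted p of 0.370 and 0.332. For L-ala versus vehicle the interval was -0.10 to 0.10. Its intervals were the narrowest of the 8 genes in all 3 comparisons.

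Podxl encodes podocalyxin, the sialylated protein that gives the free surface of the foot processes its negative charge; endothelial cells make it too. The gene lies at chr6:31519488-31563981, minus strand. Its level was 30.8, 34, 31, 27.9 and 27.9 FPKM in D-ala kidneys, 25.3, 25.7, 28.6, 23 and 21.7 FPKM in L-ala kidneys, and 22.3, 24.7, 29.2, 26.6 and 29.6 FPKM in vehicle kidneys. Only L-ala replicate 3 reached into the range of the D-ala libraries, whereas vehicle replicates 3 and 5 both did. Podxl was higher in D-ala than in L-ala kidneys, by a log2 fold change of 0.28 ± 0.085 (SE; 0.10 to 0.46), with a limma adjusted p of 0.0413. In D-ala versus vehicle the log2 fold change was 0.19 (0.01 to 0.37), with a limma adjusted p of 0.156, and in L-ala versus vehicle -0.08 (-0.26 to 0.10), with 0.529.

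The Podxl call in D-ala versus L-ala held in 13 of 25 other settings, in which its limma adjusted p ran between 0.0283 and 0.208. It was lost on leaving out D-ala replicate 1 (limma adjusted p of 0.0809), 2 (0.0908) or 3 (0.0835), L-ala replicate 1 (0.0682), 2 (0.0572), 4 (0.105) or 5 (0.0595), or vehicle replicate 4 (0.0512). Without vehicle replicate 1 and L-ala replicate 5 together it was kept. The libraries also differed in how expression varied with gene length. The Spearman correlation between gene length and a gene's deviation from its mean, across the tested genes, was -0.063 to 0.343 in D-ala libraries, -0.492 to 0.234 in L-ala libraries and -0.108 to 0.375 in vehicle libraries. Podxl was longer than most tested genes, at percentile 87.9 of length. With the length trend removed, its log2 fold change for D-ala versus L-ala was 0.19, with a limma adjusted p of 0.208.

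Ptpro encodes a receptor tyrosine phosphatase of the apical foot process membrane (GLEPP1; chr6:137252319-137463233, plus strand). It had 2.85, 3.45, 3.01, 2.6 and 2.65 FPKM in D-ala kidneys, 3.41, 3.17, 3.77, 3.13 and 2.23 FPKM in L-ala kidneys, and 2.08, 2.9, 3.05, 2.45 and 4.15 FPKM in vehicle kidneys. Both the highest and the lowest library were vehicle ones, replicates 5 and 1, and the D-ala and L-ala values lay between them. The log2 fold change was 0.01 (-0.26 to 0.28) for D-ala versus vehicle, 0.09 (-0.18 to 0.35) for L-ala versus vehicle and -0.08 (-0.34 to 0.19) for D-ala versus L-ala, with limma adjusted p of 0.973, 0.672 and 0.717.

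Synpo encodes synaptopodin, which binds actin and alpha-actinin in the foot processes (chr18:60593973-60660142, minus strand). Levels were 6.73, 9.3, 7.59, 6.78 and 7.61 FPKM in D-ala kidneys, 6.8, 6.73, 7.78, 5.54 and 6.35 FPKM in L-ala kidneys, and 5.0, 7.58, 8.06, 6.57 and 6.66 FPKM in vehicle kidneys. D-ala replicate 2 was the highest library and vehicle replicate 1 the lowest. Log2 fold changes were 0.15 (-0.08 to 0.38) for D-ala versus vehicle, -0.02 (-0.25 to 0.21) for L-ala versus vehicle and 0.17 (-0.06 to 0.40) for D-ala versus L-ala, with limma adjusted p of 0.412, 0.931 and 0.305.

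Clic5 encodes a chloride intracellular channel family protein that joins ezrin and podocalyxin to actin in podocytes (chr17:44188584-44280172, plus strand). It had 16.4, 18.2, 16.7, 16.9 and 15.7 FPKM in D-ala kidneys, 16, 15.3, 17.2, 14.3 and 19.1 FPKM in L-ala kidneys, and 13.9, 17.5, 19.1, 16.3 and 17.6 FPKM in vehicle kidneys. The 3 groups had nearly the same mean, 16.8 ± 0.922 FPKM in D-ala, 16.4 ± 1.89 in L-ala and 16.9 ± 1.94 in vehicle kidneys (SD, n = 5 each). Clic5 was the 1 gene of the 8 for which L-ala replicate 5 was the highest library of its group. The log2 fold change was -0.0028 (-0.18 to 0.17) for D-ala versus vehicle, -0.04 (-0.22 to 0.13) for L-ala versus vehicle and 0.04 (-0.14 to 0.21) for D-ala versus L-ala, with limma adjusted p of 0.990, 0.763 and 0.786.

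Wt1 encodes the zinc finger transcription factor that drives many podocyte genes, Nphs1 and Podxl among them (chr2:105126529-105173616, plus strand). Levels were 2.88, 2.94, 2.24, 1.86 and 2.29 FPKM in D-ala kidneys, 2.63, 2.22, 2.87, 2.27 and 1.19 FPKM in L-ala kidneys, and 1.71, 1.89, 2.51, 2.14 and 1.95 FPKM in vehicle kidneys. L-ala replicate 5 was the lowest of all 15, and the groups overlapped throughout. Log2 fold changes were 0.18 (-0.11 to 0.46) for D-ala versus vehicle, 0.07 (-0.22 to 0.35) for L-ala versus vehicle and 0.11 (-0.18 to 0.39) for D-ala versus L-ala, with limma adjusted p of 0.450, 0.759 and 0.627.

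Tcf21 encodes a basic helix-loop-helix transcription factor of podocytes, and in the kidney it is also known from stromal and interstitial cells (chr10:22817281-22820174, minus strand). It had 4.13, 4.07, 11, 6.65 and 6.21 FPKM in D-ala kidneys, 7.27, 6.37, 11.5, 5.48 and 3.81 FPKM in L-ala kidneys, and 14.3, 14.9, 12.9, 17.6 and 8.0 FPKM in vehicle kidneys. Replicate 3 was high in both treated groups and vehicle replicate 5 was low in its own, and these libraries made the groups overlap. Mean levels were 6.41 ± 2.82 FPKM in D-ala, 6.88 ± 2.87 in L-ala and 13.5 ± 3.55 in vehicle kidneys (SD, n = 5 each).

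On the log2(FPKM + 1) scale Tcf21 fell by 1.01 in D-ala versus vehicle kidneys (SE 0.277, 95% interval -1.60 to -0.41), with a limma adjusted p of 0.0319, and by 0.92 in L-ala versus vehicle kidneys (SE 0.277, -1.51 to -0.32), with a limma adjusted p of 0.0485. Between D-ala and L-ala kidneys its log2 fold change was -0.09, with a wide interval of -0.69 to 0.50 and a limma adjusted p of 0.853. Both calls lay close to the threshold, and the direction against vehicle held in all 25 other settings. In D-ala versus vehicle the call was kept in 18 of them, with limma adjusted p between 0.0113 and 0.0831. It was lost without D-ala replicate 1 (0.0771), 2 (0.0764) or 5 (0.0566), or without vehicle replicate 1 (0.0616), 2 (0.0636), 3 (0.0550) or 4 (0.0831). In L-ala versus vehicle it was kept in 8 of 25, with limma adjusted p between 0.0275 and 0.123. It was lost without L-ala replicate 1 (0.0773), 2 (0.0736), 4 (0.117) or 5 (0.0691), without vehicle replicate 1 (0.0841), 2 (0.0937), 3 (0.0728) or 4 (0.123), or without D-ala replicate 1 (0.0532), 4 (0.0571) or 5 (0.0602), which enter only through the shared spread. Without vehicle replicate 1 and L-ala replicate 5 the limma adjusted p was 0.111 in L-ala versus vehicle.

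Some markers of other cells were lower in the same comparisons as Tcf21. Interstitial fibroblast markers summed over 8 genes to 37.8 to 58.3 FPKM in D-ala, 42.2 to 59.7 FPKM in L-ala and 54.8 to 72.5 FPKM in vehicle libraries. The sums of both treated groups overlapped those of vehicle, and 0 of the 8 genes were at 0 in every library. Nt5e made a large part of each sum and was not called in D-ala versus vehicle. It had 18.9 to 31.3 FPKM in D-ala, 17.7 to 33.1 FPKM in L-ala and 22.7 to 34.4 FPKM in vehicle libraries. Among the 7 tested, 2 fell in D-ala versus vehicle kidneys, with a median log2 fold change of -0.27. That is 28.6% called, beside 11.5% of all tested genes called and 4.92% called lower. In L-ala versus vehicle limma called 0 of the 7, with a median of -0.30, beside 11% of all tested genes called. There 2 of 7 had an unadjusted limma p under 0.05, beside 30.5% of all tested genes. The pair that fell in D-ala versus vehicle was Pdgfra, a growth factor receptor of interstitial cells, and Dcn, a matrix proteoglycan. Pdgfra is also in the list of mesangium and pericytes, as the 1 gene of 11 tested called lower in D-ala versus vehicle. In that list 2 others were called higher, so 27.3% were called, beside 11.5% of all tested genes. In L-ala versus vehicle 0 of the 11 were higher and 1 was lower. Pdgfra had 1.11, 0.884, 1.09, 1.75 and 1.54 FPKM in D-ala kidneys, 1.4, 1.36, 2.36, 2.06 and 1.12 FPKM in L-ala kidneys, and 3.08, 1.86, 2.37, 2.69 and 2.58 FPKM in vehicle kidneys. All 5 D-ala values lay below all 5 vehicle values, with a log2 fold change of -0.63 and a limma adjusted p of 0.00748. The log2 fold change of Dcn in D-ala versus vehicle was -0.66, with a limma adjusted p of 0.0379, and its call held in 15 of 25 other settings. Of 11 tested glomerular endothelial markers, 2 fell in D-ala versus vehicle and 9 were not called, and 5 fell in L-ala versus vehicle and 6 were not called, beside 4.92% and 4.53% of all tested genes called lower. In D-ala these were Tek and Pecam1, at log2 fold changes of -0.68 and -0.53. The Pecam1 call there had a limma adjusted p of 0.0347 and held in 16 of 25 settings. Ehd3 and Plat of the same list were at 0.20 and 0.17 in D-ala versus vehicle and were not called. In L-ala, Cdh5 and Kdr had the smallest p, at -0.49 and -0.85. The part of these cells in the Tcf21 result was not tested.

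Within groups, some of the podocyte genes varied together from library to library and others did not. Likeness was measured as Pearson's r of log2(FPKM + 1) over the 15 libraries after each group's mean was taken out, so that differences between treatments do not enter. It is a description, since values of 1 library share its depth and its cells. For Nphs1, r was 0.81 with Podxl, 0.80 with Synpo and 0.80 with Ptpro. Among 11780 other genes these ranked 14, 18 and 20 by likeness to Nphs1. Podxl and Ptpro, both of the apical membrane, had an r of 0.85. Wt1 was nearest Podxl, with an r of 0.74. Cd2ap had an r of 0.56 with Nphs1 (rank 406) and Clic5 an r of 0.48 (rank 763), while Clic5 and Synpo, both of the cytoskeleton, had an r of 0.71.

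**Figure D3:**
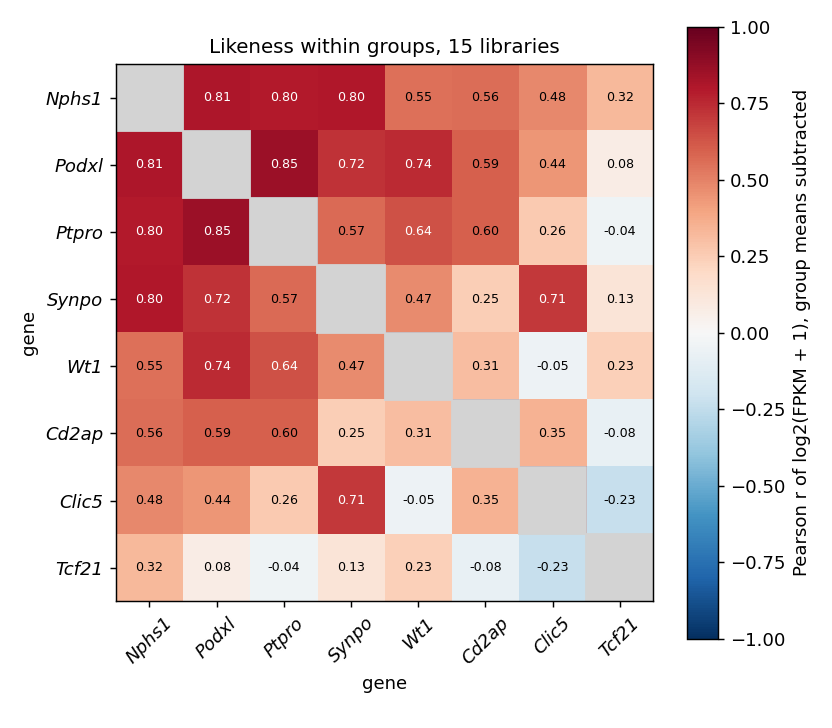
Pearson's r between pairs of podocyte genes over 15 libraries, computed on log2(FPKM + 1) with group means subtracted; red is positive, blue is negative, and grey marks a gene with itself. Nphs1, Podxl, Ptpro and Synpo form a block, with r between 0.57 and 0.85, and the Tcf21 row is pale, between -0.23 and 0.32.

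Tcf21 stood outside that block. Its r with the other 7 genes had a median of 0.08, between -0.23 with Clic5 and 0.32 with Nphs1. With the 7 tested fibroblast markers it had a median r of 0.52, positive for 7 of 7, between 0.34 for Nt5e and 0.60 for Col3a1. With glomerular endothelial markers its median r was 0.38, positive for 10 of 11, and with markers of mesangium and pericytes 0.28, positive for 8 of 11. Among the podocyte lists, its highest r was 0.74, with Nck1 of the slit diaphragm list. Nphs1 had a median r of 0.03 with the 7 fibroblast markers, 0.14 with the endothelial ones and 0.14 with those of mesangium and pericytes. Low medians were also found for Nphs1 with podocyte lists. They were -0.008 for slit diaphragm partners, 0.098 for cytoskeleton, -0.111 for transcription factors and -0.098 for adhesion and basement membrane. The median was 0.39 with other podocyte-enriched genes and 0.50 with markers of parietal epithelium. By this measure Nphs1, Podxl, Ptpro and Synpo went together and the values of Tcf21 did not go with them. The edge of that block was not sharp, since its lowest r was 0.57, for Ptpro and Synpo. Wt1, left out of it, had an r of 0.74 with Podxl, 0.64 with Ptpro, 0.55 with Nphs1 and 0.47 with Synpo. All r values and ranks include vehicle replicate 1 and L-ala replicate 5, in which most of the 8 genes were lowest of their group. They were not recomputed without these libraries, so how far the pair carries them was not tested.

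**Figure D4:**
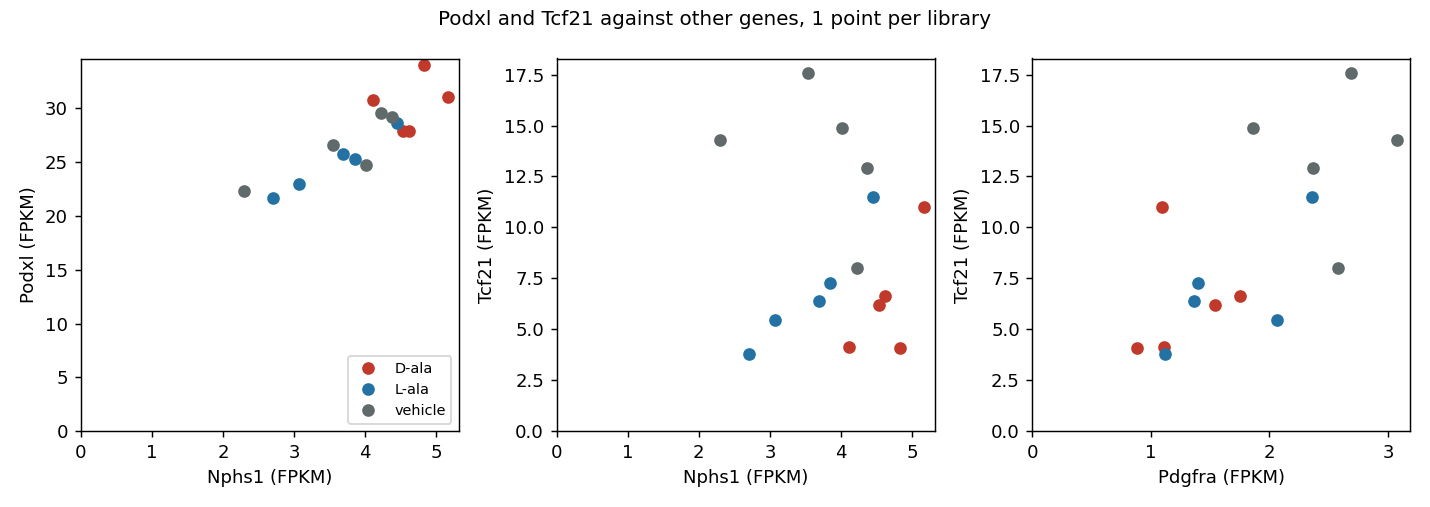
FPKM of Podxl against Nphs1 (left), Tcf21 against Nphs1 (middle) and Tcf21 against Pdgfra (right), 1 point per library, with D-ala in red, L-ala in blue and vehicle in grey. Podxl climbs with Nphs1, most vehicle points stand above the others in Tcf21 at like Nphs1, and in the right panel most vehicle points lie toward the upper right, though vehicle replicate 5 (8.0 FPKM of Tcf21) and vehicle replicate 2 (1.86 FPKM of Pdgfra) lie among treated points on 1 axis.

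Genes outside the set whose values were most like those of Nphs1 included Pigh (r of 0.92), Tm6sf2, Dynll1, Sept6, 1300014I06Rik, Wdyhv1, Pcbp2, 5730403B10Rik and Kcnj13 (0.82). None of those named is in a podocyte list. For Tcf21, in a search added after its values were seen, the closest were Osgin1 (0.87), Hoxb4 (0.85) and Sept1 (0.84).

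The 8 genes were set beside 89 other genes of podocytes in 5 lists, of which 76 were tested. In D-ala versus vehicle kidneys 8 of the 76 rose, 2 fell and 66 were not called, so 13.2% were called against 11.5% of all tested genes. Over all tested genes 6.53% were called higher and 4.92% lower. In L-ala versus vehicle kidneys 1 rose, 6 fell and 69 were not called, which is 9.21% against 11% of all tested genes. Here 6.48% of all tested genes were called higher and 4.53% lower. In D-ala versus L-ala kidneys 19 were higher, 4 were lower and 53 were not called, which is 30.3% against 13.7%. Of all tested genes, 7.01% were called higher in that comparison and 6.66% lower. Without vehicle replicate 1 and L-ala replicate 5 the counts higher and lower were 8 and 4 in D-ala versus vehicle, 2 and 14 in L-ala versus vehicle, and 26 and 4 in D-ala versus L-ala. With the length trend removed they were 9 and 2, 2 and 2, and 13 and 4. Single libraries moved them too. Those of D-ala versus L-ala were 11 and 2 without D-ala replicate 3 and also without L-ala replicate 4, and 24 and 4 without L-ala replicate 5. Those of L-ala versus vehicle were 0 and 1 without L-ala replicate 4, 0 and 2 without L-ala replicate 1 or vehicle replicate 4, and 3 and 18 without L-ala replicate 5. The number of all 11781 tested genes called moved as well. Without L-ala replicate 5 it was 2580 in L-ala versus vehicle and 2761 in D-ala versus L-ala, beside 1297 and 1611 with all libraries. It was 321 in L-ala versus vehicle without vehicle replicate 4, and 770 in D-ala versus L-ala without L-ala replicate 4. Leaving out the pair raised this number in both of these comparisons too. The other podocyte lists hold many genes that tubule and vessel cells also express.

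Of the 8 tested genes in the list of podocyte transcription factors, 2 were higher and 0 lower in D-ala versus vehicle. That is 25% called, beside 11.5% of all tested genes. Ldb1, a LIM domain binding cofactor, was among the 2 that were higher, at a log2 fold change of 0.20. Its limma adjusted p was 0.0479, a call that held in 9 of 25 settings. For L-ala versus vehicle limma called 0 of the 8, beside 11% of all tested genes. Of the 8, 2 had an unadjusted limma p under 0.05, beside 30.5% of all tested genes. Between D-ala and L-ala kidneys, 2 were higher and 1 lower, or 37.5% called beside 13.7% of all tested genes. Ldb1 was among those higher, at a log2 fold change of 0.20. That call held in 9 of 25 settings, and its limma adjusted p was 0.11 without D-ala replicate 3. Foxc2, a forkhead factor, was lower, at -0.46 with a limma adjusted p of 0.0430 that held in 12 of 25.

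The next list holds genes of adhesion and of the glomerular basement membrane, the sheet to which podocytes attach. Relative to L-ala, in D-ala kidneys 6 of 14 tested were higher and 1 was lower, with a median log2 fold change of 0.29 beside -0.0090 over all tested genes. That is 50% called, beside 13.7% of all tested genes called, 7.01% higher and 6.66% lower. Lama5, a laminin chain, had 9.52, 11.2, 9.65, 9.94 and 10.7 FPKM in D-ala kidneys, 5.96, 5.85, 5.78, 4.93 and 5.95 FPKM in L-ala kidneys, and 6.96, 6.98, 6.9, 8.03 and 7.16 FPKM in vehicle kidneys. The 3 groups did not overlap. Its log2 fold change relative to vehicle was 0.45 in D-ala and -0.29 in L-ala kidneys, and relative to L-ala it was 0.74 in D-ala kidneys, with limma adjusted p of 0.00040, 0.0146 and 6.98e-06. With the length trend removed, the L-ala versus vehicle value was -0.12, with a limma adjusted p of 0.282, the 1 setting of 25 in which that call was lost. Lamb2, another laminin chain, fell in L-ala versus vehicle by 0.24, with a limma adjusted p of 0.0350 that held in 16 of 25 settings and ran between 0.0172 and 0.334 over them.

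Vegfa, the endothelial growth factor that podocytes and tubule cells secrete, had 83, 75.5, 77.4, 98.8 and 106 FPKM in D-ala kidneys, 43.8, 47, 51.4, 39.1 and 55.6 FPKM in L-ala kidneys, and 51.2, 53.7, 49.9, 51.6 and 46.8 FPKM in vehicle kidneys. The D-ala libraries stood above all others. Its log2 fold change was 0.78 in D-ala versus vehicle and 0.88 in D-ala versus L-ala, with limma adjusted p of 0.00014 and 7.14e-05. Col4a3, a type IV collagen chain of the glomerular membrane, was also higher in D-ala kidneys, by 0.34 against vehicle and 0.58 against L-ala, with limma adjusted p of 0.0142 and 0.00080. Agrn, a heparan sulfate proteoglycan, was higher in D-ala versus L-ala by 0.37 with a limma adjusted p of 0.0107. Itgb1, the beta chain of the integrin that holds podocytes to laminin, fell in D-ala versus vehicle by 0.28, with a limma adjusted p of 0.0018. All these calls held in 25 of 25 other settings.

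**Figure D5:**
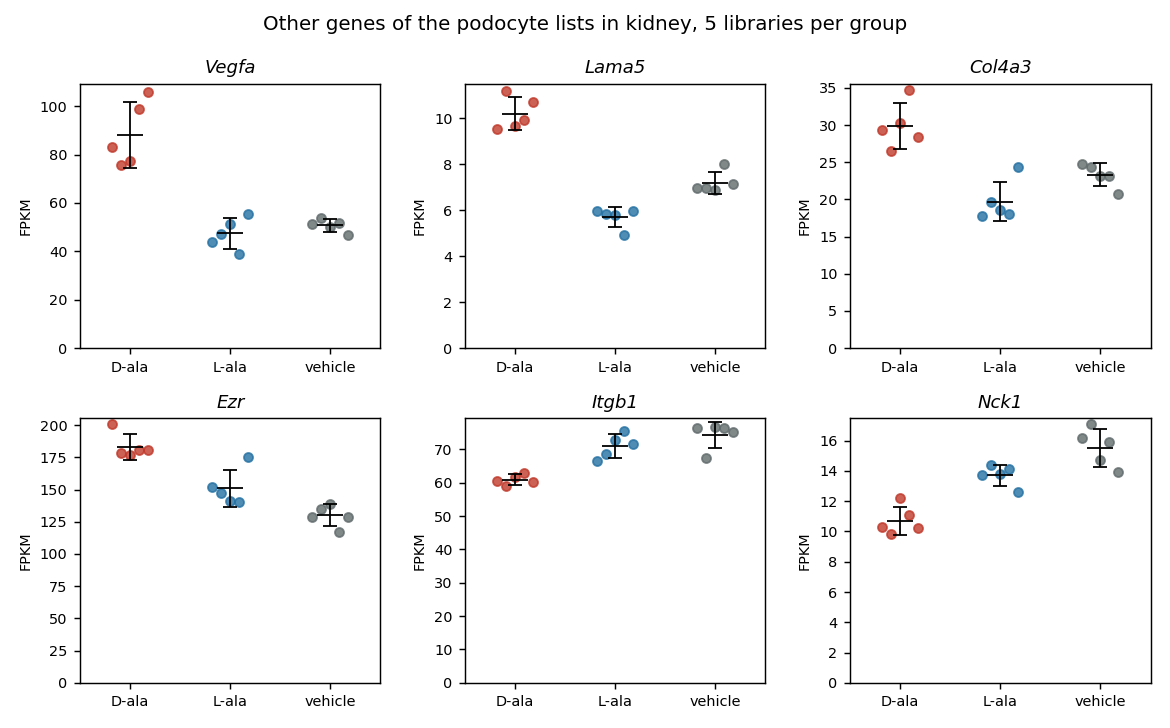
FPKM of Vegfa, Lama5, Col4a3, Ezr, Itgb1 and Nck1 (vertical axes, from 0) in D-ala, L-ala and vehicle kidneys, 1 point per library, 5 libraries per group, with the mean and SD. The D-ala points stand above all vehicle and L-ala points for Vegfa, Lama5, Col4a3 and Ezr, and below them for Itgb1 and Nck1.

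Among partners of the slit diaphragm, 1 of 16 tested rose and 1 fell in D-ala versus vehicle, 0 rose and 1 fell in L-ala versus vehicle, and 3 were higher and 1 lower in D-ala versus L-ala. In that order 12.5%, 6.25% and 25% of the list were called, beside 11.5%, 11% and 13.7% of all tested genes. Nck1, an adaptor that binds phosphorylated nephrin, had 10.3, 9.86, 12.2, 11.1 and 10.2 FPKM in D-ala kidneys, 13.7, 14.4, 13.8, 14.1 and 12.6 FPKM in L-ala kidneys, and 16.2, 17.1, 14.7, 15.9 and 13.9 FPKM in vehicle kidneys. Every D-ala library lay below every other library. Its log2 fold change was -0.50 in D-ala versus vehicle and -0.33 in D-ala versus L-ala, with limma adjusted p of 0.00021 and 0.0059, both held in 25 of 25 settings. Pik3r1, a regulatory subunit of PI3-kinase, was higher in D-ala versus L-ala by 0.54 and Dnm2, a dynamin of membrane uptake, by 0.23, with limma adjusted p of 0.0053 and 0.0084, both held in 25 of 25. The third was Iqgap1, a scaffold of actin and junctions, at 0.21 and a limma adjusted p of 0.0463 that held in 9 of 25. Pik3r1 also rose in D-ala versus vehicle, by 0.34 with a limma adjusted p of 0.0468, a call held in 9 of 25 settings. Tjp1, the junction protein ZO-1, fell in L-ala versus vehicle by 0.31, with a limma adjusted p of 0.0221 that held in 19 of 25 settings and ran between 0.0049 and 0.0988 over them.

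In the cytoskeleton list of 20 tested genes, 1 rose and 0 fell in D-ala versus vehicle, 1 rose and 2 fell in L-ala versus vehicle, and 6 were higher and 0 lower in D-ala versus L-ala. In that order 5%, 15% and 30% of the list were called, beside 11.5%, 11% and 13.7% of all tested genes. Ezr encodes ezrin, which ties podocalyxin to actin in podocytes and also builds the brush border of the proximal tubule. It had 201, 178, 177, 181 and 181 FPKM in D-ala kidneys, 152, 147, 141, 140 and 175 FPKM in L-ala kidneys, and 129, 135, 139, 117 and 129 FPKM in vehicle kidneys. All D-ala libraries lay above all others. Its log2 fold change was 0.50 in D-ala versus vehicle and 0.28 in D-ala versus L-ala, with limma adjusted p of 0.00021 and 0.0141. Tln1, which joins integrins to actin, was higher in D-ala versus L-ala by 0.34 and Ddn, which encodes dendrin, a partner of synaptopodin, by 0.35, with limma adjusted p of 0.0071 and 0.0246, held in 25 and 21 of 25 settings. Myh9, a non-muscle myosin, was higher there by 0.31 (limma adjusted p of 0.0330, held in 13 of 25) and fell in L-ala versus vehicle by 0.29 (0.0483, held in 8 of 25). The gene that rose in L-ala versus vehicle was Ezr, by 0.21, with a limma adjusted p of 0.0490 that held in 4 of 25. Utrn, a relative of dystrophin, fell in L-ala versus vehicle by 0.40, with a limma adjusted p of 0.0185 that held in 23 of 25 settings; it was 0.124 with the length trend removed and 0.0525 without L-ala replicate 4.

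Of the 18 other tested podocyte-enriched genes, 1 rose in D-ala versus vehicle, Mapt, at a log2 fold change of 0.24 and a limma adjusted p of 0.0404 that held in 13 of 25 settings. Shares of the 18 called were 5.56% in both comparisons with vehicle, beside 11.5% (D-ala) and 11% (L-ala) of all tested genes. In D-ala versus L-ala 16.7% were called, beside 13.7%. Gas1, a surface protein of hedgehog signalling, fell in L-ala versus vehicle by 0.61, with a limma adjusted p of 0.0272 that held in 20 of 25. Relative to L-ala, in D-ala kidneys Sema3g, a secreted semaphorin, and Rasl11a were higher, by 0.50 and 0.48, and Ptgds, a prostaglandin D synthase, was lower, at -0.80, with limma adjusted p of 0.0116, 0.0277 and 0.0308, held in 25, 21 and 17 of 25.

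Red blood cell markers summed to 44 to 471 FPKM in D-ala libraries, 274 to 755 FPKM in L-ala libraries and 25.5 to 267 FPKM in vehicle libraries. Neutrophil markers summed to 2.42 to 11.4 FPKM in D-ala, 13.2 to 35.2 FPKM in L-ala and 0.795 to 7.81 FPKM in vehicle libraries, so every L-ala library stood above every other. The part of blood cells in the L-ala values of the podocyte genes was not tested.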

How the data were processed

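The genes and the lists were chosen with earlier results of these data known. Per the labels' protocols, RNA was taken from kidney with TRIzol and made into stranded TruSeq mRNA libraries. The submitters' processing notes name TopHat2 2.0.13, Bowtie2 2.2.3, SAMtools 0.1.19 and build mm10; the sources used here name no counting program and no annotation. The authors deposited 1 table of 23284 genes, with FPKM per library, a processed signal, and counts. Per the file headers and values, the deposited signal is log2 FPKM centred per gene, to within 0.0012 over 10664 genes. The authors' count columns were rescaled to whole-number scores, so no count model was run on them; of their low values, 68.0% to 82.4% per library came out within 0.1 of a whole read. FPKM were used throughout.

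Genes at 1 FPKM or more in 5 or more libraries were kept (11781; 5217 were at 0 everywhere). log2(FPKM + 1) values were fitted with limma 3.58.1 in R 4.3.3, with 1 mean per group of 5 and empirical Bayes with trend and robust, and tested on simulated data first. Adding 1 understates changes of low genes. Adjusted p-values are Benjamini-Hochberg over all tested genes. Named genes were the 8, up to 4 called genes per podocyte list and comparison and up to 2 per other list by smallest p, and those among the 10 genes most like Nphs1; Osgin1, Hoxb4, Sept1, Nt5e and Col3a1 were named after their values were seen. Other settings were a pseudocount of 0.1, no filter, quantile or median-of-ratios scaling, a fit on 2 groups, array weights, no trend, the length or GC trend removed, and each library left out; 1 more, without vehicle replicate 1 and L-ala replicate 5, was added after seeing the data. Some genes that this rule names are not reported here.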

Additional observations from a re-analysis of the deposited data

Results flagged for a closer look

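Cd2ap in D-ala replicate 5, at 16.7 FPKM, lay apart from the other D-ala libraries, which had 18.2 to 18.5 FPKM. The gap to its nearest neighbour was 0.826 of the range of the group, against a limit of 0.71 for 5 samples (Dixon's 95% value). It was the 1 such library among 24 groups examined, and chance flags about 1 in 20 groups. Without that library the log2 fold change of Cd2ap was -0.04 in D-ala versus vehicle and -0.04 in D-ala versus L-ala.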

How the results depend on the processing

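No paired analysis was possible because the labels give no replicate numbers shared between the groups. Of the 24 settings besides the added one, leaving out each library in turn moved the number of genes called to 812 to 1592 in D-ala versus vehicle, 321 to 2580 in L-ala versus vehicle and 770 to 2761 in D-ala versus L-ala, and the number of the 8 podocyte genes called to 0 to 1, 0 to 1 and 0 to 2. The count fell to 812 without vehicle replicate 4 in D-ala versus vehicle. For L-ala versus vehicle it was 802, 760 and 321 without vehicle replicates 1, 2 and 4, and 626, 797, 391 and 2580 without L-ala replicates 1, 3, 4 and 5. For D-ala versus L-ala it was 1019, 969 and 1061 without D-ala replicates 1, 3 and 4, and 1026, 1070, 770 and 2761 without L-ala replicates 1, 3, 4 and 5. Genes called in L-ala versus vehicle numbered 575 with quantile normalization, 603 in a fit on those 2 groups, 2308 with array weights, 815 with the length trend removed and 2211 in the added setting. Those of D-ala versus L-ala numbered 975 in the fit on 2 groups, 2700 with array weights and 2770 in the added setting. With quantile normalization 47% of the calls in D-ala versus vehicle were higher, beside 57%, and 40.7% in L-ala versus vehicle, beside 58.8%.

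In L-ala versus vehicle 0 of the 8 genes were called with a pseudocount of 0.1, no filter, quantile normalization, the fit on 2 groups, array weights or the added setting; Tcf21 then had limma adjusted p of 0.0521, 0.0576, 0.0736, 0.0616, 0.0520 and 0.111. In D-ala versus L-ala 0 were called with no filter, the fit on 2 groups, or the length or GC trend removed; Podxl then had limma adjusted p of 0.0639, 0.0507, 0.208 and 0.0509. The causes were not tested.

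Uncalled genes near 0 changed sign. In D-ala versus vehicle the log2 fold change became 0.0174 for Clic5 with the length trend removed; 0.0270 for Cd2ap, -0.0029 for Ptpro and 0.0167 for Clic5 with the GC trend removed; and -0.0712 for Ptpro in the added setting. In L-ala versus vehicle it became 0.0359 for Nphs1 and 0.0251 for Synpo with quantile normalization, and 0.0034 for Nphs1 and 0.0041 for Cd2ap with array weights. With the length trend removed it became 0.0759 for Nphs1, 0.104 for Cd2ap, 0.0201 for Podxl, 0.0799 for Synpo and 0.0715 for Clic5, and with the GC trend removed 0.0421 for Cd2ap. In D-ala versus L-ala it became -0.0541 for Clic5 and 0.0014 for Tcf21 with the length trend removed, and -0.0276 for Wt1 in the added setting, where Clic5 was -0.161 in L-ala versus vehicle. Over the libraries left out in turn, values in D-ala versus vehicle ran from -0.0712 to 0.114 for Ptpro and -0.0669 to 0.0415 for Clic5. Those of L-ala versus vehicle ran from -0.155 to 0.0372 for Nphs1, -0.0288 to 0.0168 for Cd2ap, -0.107 to 0.0414 for Synpo, -0.106 to 0.0038 for Clic5 and -0.0024 to 0.203 for Wt1. Those of D-ala versus L-ala ran from -0.0066 to 0.0939 for Clic5, -0.0276 to 0.177 for Wt1 and -0.285 to 0.0917 for Tcf21. The median shift of all tested genes stayed under 0.1 in log2.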
